A study of Homo sapiens with 9 samples.

Results

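Aminoacyl tRNA synthetase genes were followed through 9 RNA-seq libraries of HCC827 cells. The members were the rows of the deposited count table whose Ensembl identifiers map, in GENCODE 29, to 36 named symbols: 20 genes of cytosolic enzymes and 16 genes of mitochondrial enzymes, whose names end in 2. All 36 were found among the 60675 rows. The rule reads names only, but the set was proposed with earlier results of these data known. HCC827 is an established human lung adenocarcinoma line with an activating EGFR mutation. G1 cells stably expressed short hairpin G1 against CBX5, G7 cells stably expressed hairpin G7 against the same gene, and NS cells carried a non-silencing hairpin as control, also stably expressed. All groups were therefore HCC827 cells carrying a hairpin, grown in DMEM with serum, with 3 libraries each. CBX5 encodes the heterochromatin protein HP1 alpha. Whether libraries of a group came from separate transductions is not given in the sources used here, so p-values measure the spread between these libraries, which may be technical.

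Each synthetase joins one amino acid to its own tRNAs, and the charged tRNA then brings that amino acid to the ribosome. Cytosolic and mitochondrial protein synthesis use separate sets of enzymes, all encoded in the nucleus, except that GARS and KARS each supply both compartments. Several cytosolic enzymes sit together in the multi-synthetase complex on the scaffold proteins AIMP1, AIMP2 and EEF1E1. Many cytosolic synthetase genes are known targets of ATF4, a transcription factor made when the kinases of the integrated stress response phosphorylate the initiation factor eIF2.

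Library totals ran from 12701561 to 22372353 counts. The share of counts from mitochondrially encoded genes was 13.4% to 16.6% with G1, 14.4% to 19.8% with G7 and 15.04% to 17.7% with NS. G7 replicate 3 had the highest share and stood apart from G7 replicates 1 and 2. Levels are given in CPM, counts scaled to TMM-adjusted library size, and as a mean they carry the SD over 3 libraries. Levels of different genes were compared as CPM per kb of exon, and in plain CPM only where stated. A gene was called when its edgeR quasi-likelihood p, adjusted by Benjamini-Hochberg over all 13264 genes tested, lay under 0.05, and adjusted p-values are from that test unless another is named. Values after ± on a log2 fold change are standard errors. The targeted gene, CBX5, had 142, 142 and 143 CPM in the G1 libraries, 204, 204 and 201 CPM in the G7 libraries and 369.7, 377 and 361 CPM in the NS libraries, so both hairpin groups lay below NS and G1 lay below G7. Lung epithelial markers were abundant, with summed levels of 13746 to 13939 CPM with G1, 11442 to 12117 CPM with G7 and 9629 to 10604 CPM with NS. Of the 7 tested of 8 listed 6 were called higher with G1, led by KRT8, beside 30.4% of all genes tested. The other one, the surfactant gene SFTPB, was called lower with G1 at a log2 fold change of -2.72 ± 0.52 (adjusted p = 1.99e-04), with at most 15 counts in a library. The lineage factor NKX2-1 was listed at 0 in every library. Markers of leukocytes, endothelium and mesenchyme summed to 87.4 to 94.0 CPM with G1, 101 to 107 CPM with G7 and 99.6 to 109 CPM with NS. Of these 10 markers none was at 0 in every library, PTPRC, CD3E, LYZ, COL1A2, COL3A1 and VIM stayed at 12 counts or fewer in each library, and PECAM1 made up most of the sum. With G1 the endothelial marker PECAM1 was called lower at a log2 fold change of -0.40 ± 0.057 (adjusted p = 9.37e-06) and another one, CDH5, was called higher at a log2 fold change of 0.32 ± 0.087 (adjusted p = 0.0039). The part of these shifts in the results was not tested. In bulk RNA, fewer cells making a transcript and less of it per cell cannot be told apart.

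Among the members, 34 of 36 passed the filter on low counts and were tested. AARS2 and MARS2 were listed at 0 in all 9 libraries and have no fold change. The partner gene EEF1E1 was also listed at 0 throughout. Whether such zeros come from the counting or from absent transcripts was not tested, so they are not read as low expression. SARS2 passed with 7 to 17 counts per library. In the GENCODE annotation 57.0% of its exon bases are shared with other genes, AC011455.2 on the same strand and MRPS12 on the opposite one, so its low count is uncertain. VARS2 shares 1858 exon bases with GTF2H4 on the same strand and is uncertain for the same reason. The strand setting of the counting is not given in the sources used here, so the counts of HARS and HARS2, whose exons overlap on opposite strands, and of MARS, whose exons overlap DDIT3 and ARHGAP9, may also have lost reads.

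In NS cells the level per kb differed widely between members. The length used is the union of all annotated exons of a gene, so the order of genes depends on the annotation. The highest cytosolic genes were TARS, the threonine enzyme, at 95.3 ± 3.84 CPM per kb, EPRS, the joint glutamate and proline enzyme, at 86.3 ± 3.98, AARS, the alanine enzyme, at 68.5 ± 2.11, and IARS, the isoleucine enzyme, at 60.1 ± 1.33. The lowest were HARS at 6.90 ± 0.296, WARS at 6.81 ± 0.216 and CARS at 5.40 ± 0.289 CPM per kb, of which HARS and WARS lay within their SD of each other. The median over the 20 cytosolic genes was 31.97 CPM per kb, against 5.03 over the 16 mitochondrial ones. The latter enters AARS2 and MARS2 at 0, which lowers it. IARS2, the mitochondrial isoleucine enzyme, stood far above its class at 75.6 ± 3.13 CPM per kb. It supplied 46.6% of the mitochondrial class's summed CPM in NS cells. RARS2 at 17.4 ± 1.11 and WARS2 at 17.3 ± 0.870 CPM per kb followed and did not differ beyond their SD. LARS2 at 2.11 ± 0.269 and SARS2 at 0.220 ± 0.0342 CPM per kb were the lowest of those with counts.

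**Figure D1:**
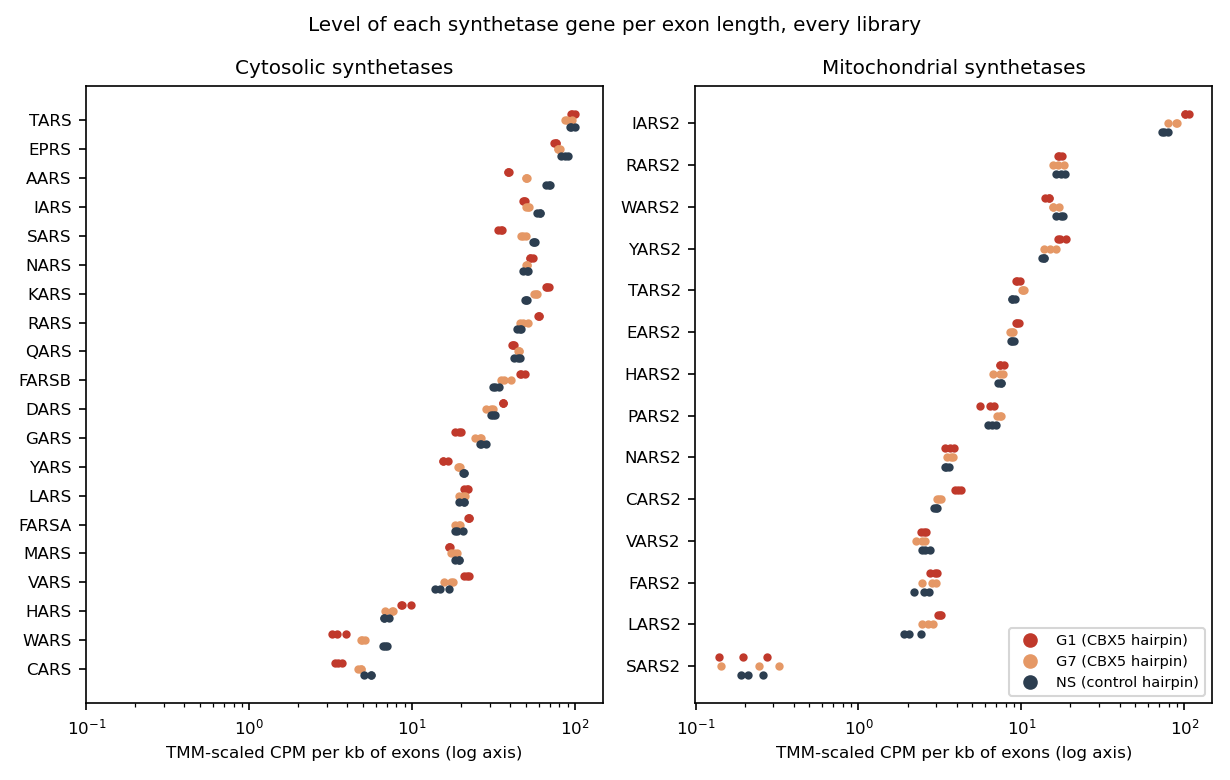
Level of each synthetase gene in CPM per kb of exon (log axis) for cytosolic and mitochondrial members, with one point per library of G1, G7 and NS. IARS2 stood at the level of the highest cytosolic genes while the other mitochondrial members lay below it. AARS2 and MARS2, listed at 0, are not drawn.

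G1 changed the cytosolic synthetase genes in both directions. Of 20 cytosolic genes, 8 rose and 9 fell with G1, and 3 were not called. The median log2 fold change was -0.04, beside -0.01 over all genes tested. The background was high, since the G1 comparison called 59.1% of the genes tested, 30.4% upwards and 28.7% downwards. The libraries of G1 and NS did not overlap for 15 tested members that were higher and 11 that were lower with G1, beside 64.1% of all genes tested (32.5% higher, 31.6% lower). Of the 14 tested mitochondrial genes, 4 rose and 1 fell, with a median of 0.07, so 22 of 34 tested members were called. With upper-quartile scaling the medians were -0.13 for the cytosolic genes, -0.01 for the mitochondrial genes and -0.10 for all genes, so the sign of the mitochondrial median depended on the scaling. That scaling called 3066 genes higher and 4815 lower with G1, against 4031 higher and 3806 lower with TMM.

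**Figure D2:**
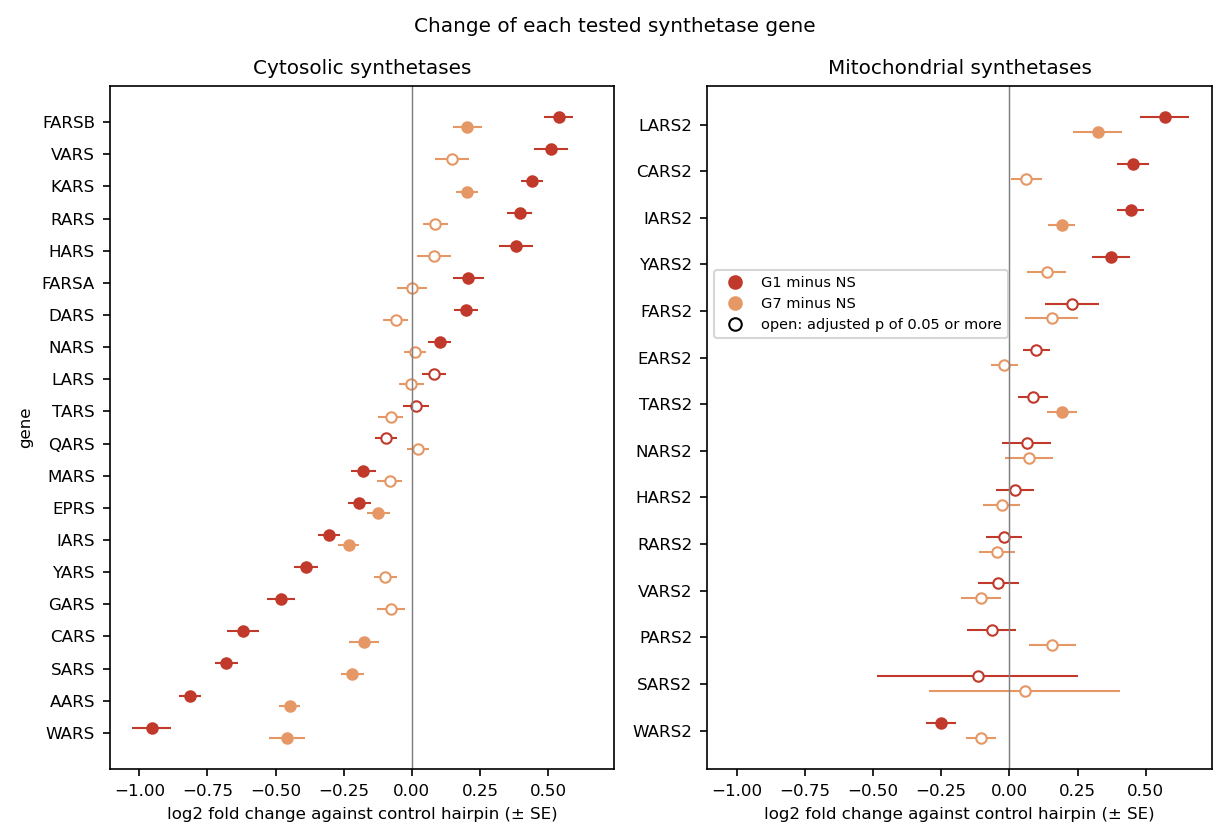
Log2 fold change against NS (± SE) for G1 and G7 of each tested synthetase gene, ordered by the G1 change; filled points are called at an adjusted p under 0.05. Cytosolic changes with G1 ran from -0.95 for WARS to 0.54 for FARSB, and mitochondrial ones from -0.25 for WARS2 to 0.57 for LARS2.

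The lowest fold changes were those of the tryptophan and alanine enzymes. WARS (ENSG00000140105, chr14:100333788-100376805, minus strand), which loads tryptophan and is also known as an interferon-induced gene, had 21.9, 20.3 and 25.1 CPM in the G1 libraries, 31.2, 31.0 and 32.5 CPM in the G7 libraries and 41.9, 43.3 and 44.7 CPM in the NS libraries. Every G1 library lay below every G7 library, and every G7 library below every NS library. It fell with both hairpins, with log2 fold changes of -0.95 ± 0.070 (adjusted p = 1.64e-09) with G1 and -0.46 ± 0.067 (adjusted p = 7.84e-05) with G7, and G1 minus G7 was -0.50 ± 0.071 (adjusted p = 1.56e-05). AARS (ENSG00000090861, chr16:70252295-70289543, minus strand) had 175, 175 and 176 CPM in the G1 libraries, 226, 228 and 224 CPM in the G7 libraries and 311, 298 and 316 CPM in the NS libraries, in the same order with no overlap between groups. It fell by 0.81 ± 0.039 on the log2 scale with G1 (adjusted p = 4.35e-12) and by 0.45 ± 0.039 with G7 (adjusted p = 2.62e-07).

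The promoter sequence of AARS is shown because it holds the letters that ATF4 with a C/EBP partner is known to bind, the core of the C/EBP-ATF response element. It covers 250 bases before to 50 after the RefSeq start in GRCh38.p14 (chr16:70289457-70289756, minus strand), written 5′ to 3′ along the gene, with the element in capitals. In this reading direction the gene's strand carries TTNCATCA, the reverse complement of TGATGNAA.
AARS promoter: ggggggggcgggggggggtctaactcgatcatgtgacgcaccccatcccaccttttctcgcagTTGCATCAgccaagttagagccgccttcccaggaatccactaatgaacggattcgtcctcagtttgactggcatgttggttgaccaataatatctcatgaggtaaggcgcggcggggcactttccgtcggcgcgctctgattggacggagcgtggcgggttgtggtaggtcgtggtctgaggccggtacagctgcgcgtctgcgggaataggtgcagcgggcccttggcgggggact

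Promoter sequences from RefSeq matched 30 of the 36 members, 16 cytosolic and 14 mitochondrial. The others were DARS, LARS, VARS, YARS, AARS2 and VARS2. TGATGNAA was searched on both strands, and 3.62% of 35116 promoters of the same length held it. It occurred in 6 of 16 cytosolic promoters and 1 of 14 mitochondrial promoters. Of the 6 cytosolic genes, AARS, CARS, IARS and MARS fell with G1, NARS rose and TARS was not called. Among cytosolic genes with a promoter, 4 of 8 that fell held it, 1 of 6 that rose and 1 of 2 not called. WARS, SARS, GARS and EPRS fell with G1 and had no match. The mitochondrial gene was YARS2, which rose. All 6 cytosolic matches read TGATGCAA on one strand or the other, and the match in YARS2 read TGATGGAA. The matched stretches are given with their GRCh38.p14 position and strand so that the element (capitals) can be compared between genes that fell and genes that did not:
AARS, chr16:70289670-70289709, minus strand: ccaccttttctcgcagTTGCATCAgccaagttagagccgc
CARS, chr11:3057402-3057441, minus strand: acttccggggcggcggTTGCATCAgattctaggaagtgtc
IARS, chr9:92293687-92293726, minus strand: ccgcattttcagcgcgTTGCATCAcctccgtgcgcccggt
MARS, chr12:57488048-57488087, plus strand: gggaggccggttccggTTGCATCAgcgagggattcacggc
NARS, chr18:57621799-57621838, minus strand: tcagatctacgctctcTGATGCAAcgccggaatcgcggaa
TARS, chr5:33440951-33440990, plus strand: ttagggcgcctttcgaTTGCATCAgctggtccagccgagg
YARS2, chr12:32756071-32756110, minus strand: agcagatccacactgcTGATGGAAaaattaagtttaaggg

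In CARS, IARS, MARS, NARS and TARS the element lay within 15 bases of the start site, while in AARS and YARS2 it lay 187 and 197 bases upstream. A match is a description of letters, and binding was not measured here. The E-box CACGTG, a palindrome held by 7.26% of promoters, occurred in IARS, CARS2, EARS2 and MARS2. The NRF1 motif (GCGCA, any base, then GCGC), held on either strand by 5.78% of promoters, occurred in FARSB, SARS, TARS, IARS2, MARS2 and PARS2. No match of one motif overlapped a match of another in these promoters.

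Other cytosolic genes that fell with G1 included those for serine, cysteine, glycine and tyrosine. SARS, the serine enzyme, had 129.6, 135 and 135 CPM in the G1 libraries, 178, 183 and 190.2 CPM in the G7 libraries and 211, 214 and 217 CPM in the NS libraries. Its groups did not overlap, and the log2 fold change was -0.68 ± 0.042 (adjusted p = 1.29e-10) with G1 and -0.22 ± 0.041 (adjusted p = 8.54e-04) with G7. CARS, the cysteine enzyme, had 33.5, 37.3 and 35.0 CPM in the G1 libraries, 48.6, 48.7 and 46.9 CPM in the G7 libraries and 56.1, 50.9 and 55.8 CPM in the NS libraries. G1 lay clear of the other groups, with a log2 fold change of -0.62 ± 0.059 (adjusted p = 5.08e-08). With G7 it was -0.18 ± 0.057 (adjusted p = 0.0311), a call that was lost without G7 replicate 1, 2 or 3 or NS replicate 1 or 3, with DESeq2 or with thinned libraries (-0.18 to -0.15, adjusted p = 0.0501 to 0.117).

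GARS, which loads glycine in the cytosol and in mitochondria, had 80.5, 76.4 and 83.3 CPM in the G1 libraries, 100.3, 109 and 108 CPM in the G7 libraries and 108, 117 and 109 CPM in the NS libraries. Only the G1 libraries stood apart, and the log2 fold change was -0.48 ± 0.051 (adjusted p = 2.33e-07) with G1 and -0.08 ± 0.050 (adjusted p = 0.297) with G7. YARS, the tyrosine enzyme, had 127, 137 and 127 CPM in the G1 libraries, 160.1, 161 and 157 CPM in the G7 libraries and 169, 171 and 172 CPM in the NS libraries. The groups did not overlap, with G1 lowest and NS highest. The log2 fold change was -0.39 ± 0.043 (adjusted p = 3.59e-07) with G1 and -0.10 ± 0.042 (adjusted p = 0.107) with G7, which upper-quartile scaling called (-0.12, adjusted p = 0.0364).

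Within the multi-synthetase complex, changes went both ways. Of its 8 enzymes among the members, 3 rose with G1 (KARS, RARS and DARS), 3 fell (IARS, EPRS and MARS) and 2 were not called (QARS and LARS), with a median log2 fold change of -0.01. The 12 cytosolic genes outside the complex had 5 rises, 6 falls and a median of -0.19. Both counts stand beside 59.1% of all genes tested called with G1, 30.4% higher and 28.7% lower. IARS had 357, 356 and 366 CPM in the G1 libraries, 379, 386 and 371 CPM in the G7 libraries and 450.0, 450.3 and 433 CPM in the NS libraries. The NS libraries lay above all others, and the log2 fold change was -0.30 ± 0.039 (adjusted p = 2.33e-06) with G1 and -0.23 ± 0.039 (adjusted p = 3.14e-04) with G7. EPRS averaged 411 ± 4.98 CPM with G1, 432 ± 7.31 CPM with G7 and 470.5 ± 21.7 CPM with NS (SD, n = 3 each), with a log2 fold change of -0.19 ± 0.042 (adjusted p = 6.39e-04) with G1. With G7 it was -0.12 ± 0.042 (adjusted p = 0.0407), and that call was lost without G1 replicate 2 or 3 or G7 replicate 1, 2 or 3 or NS replicate 1 or 2 or in a fit of the 2 groups alone (-0.13 to -0.09, adjusted p = 0.0569 to 0.186). MARS, the methionine enzyme, averaged 119 ± 1.27 CPM with G1, 127 ± 5.53 CPM with G7 and 134 ± 4.54 CPM with NS (SD, n = 3 each) and had a log2 fold change of -0.18 ± 0.045 (adjusted p = 0.00244) with G1.

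KARS, the lysine enzyme of both compartments (ENSG00000065427, chr16:75627474-75648643, minus strand), had 271, 272 and 282 CPM in the G1 libraries, 228, 235 and 236 CPM in the G7 libraries and 205, 203 and 199 CPM in the NS libraries. G1 libraries were the highest and NS libraries the lowest, without overlap. It rose with both hairpins, by 0.44 ± 0.039 (adjusted p = 2.13e-08) on the log2 scale with G1 and 0.20 ± 0.039 (adjusted p = 0.00114) with G7. RARS, the arginine enzyme, had 203, 205 and 206 CPM in the G1 libraries, 163, 175 and 158 CPM in the G7 libraries and 158, 158 and 150.4 CPM in the NS libraries. The G1 libraries lay above the others, while G7 and NS overlapped. The log2 fold change was 0.40 ± 0.045 (adjusted p = 5.06e-07) with G1 and with G7 0.09 ± 0.045 (adjusted p = 0.187). DARS, the aspartate enzyme, averaged 144 ± 0.488 CPM with G1, 121 ± 5.79 CPM with G7 and 126 ± 3.69 CPM with NS (SD, n = 3 each), with a log2 fold change of 0.20 ± 0.045 (adjusted p = 9.45e-04) with G1 and -0.06 ± 0.045 (adjusted p = 0.371) with G7. QARS, the glutamine enzyme, and LARS, the leucine enzyme, had log2 fold changes with G1 of -0.10 ± 0.041 (adjusted p = 0.0531) and 0.08 ± 0.045 (adjusted p = 0.131). For QARS the fit called the fall without G7 replicate 3 or NS replicate 2, with upper-quartile scaling, in a fit of the 2 groups alone or without mitochondrially encoded genes (-0.18 to -0.09, adjusted p = 0.000946 to 0.0478).

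Outside the complex, the largest cytosolic rises with G1 were those of FARSB and VARS. FARSB is the beta subunit of the phenylalanine enzyme (ENSG00000116120, chr2:222570536-222656337, minus strand) and had 155, 158 and 166 CPM in the G1 libraries, 119, 123 and 137 CPM in the G7 libraries and 109, 114 and 106 CPM in the NS libraries. G1 libraries lay above G7 libraries and these above NS libraries, and the log2 fold change was 0.54 ± 0.053 (adjusted p = 8.52e-08) with G1 and 0.20 ± 0.053 (adjusted p = 0.0102) with G7. FARSA, the alpha subunit of the same enzyme, had a smaller log2 fold change of 0.21 ± 0.056 (adjusted p = 0.00372) with G1 and 0.00 ± 0.056 (adjusted p = 0.995) with G7. The FARSA call with G1 was lost with upper-quartile scaling (0.12, adjusted p = 0.0762).

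VARS, the valine enzyme, had 135, 133 and 127 CPM in the G1 libraries, 108, 105 and 94.7 CPM in the G7 libraries and 90.5, 84.4 and 102 CPM in the NS libraries. The G1 libraries were the highest, and G7 and NS overlapped. The log2 fold change was 0.51 ± 0.062 (adjusted p = 1.33e-06) with G1 and 0.15 ± 0.063 (adjusted p = 0.102) with G7, and G7 was called without G7 replicate 3 or NS replicate 3 or with no filter on low counts (0.15 to 0.23, adjusted p = 0.0118 to 0.0448). HARS, the histidine enzyme, had 66.9, 76.7 and 68.4 CPM in the G1 libraries, 59.9, 59.0 and 53.5 CPM in the G7 libraries and 53.0, 52.7 and 56.9 CPM in the NS libraries. Again only G1 lay clear of the others. The log2 fold change was 0.38 ± 0.062 (adjusted p = 3.43e-05) with G1 and 0.08 ± 0.062 (adjusted p = 0.385) with G7. NARS, the asparagine enzyme, rose least, with 0.10 ± 0.042 (adjusted p = 0.0424), and its call was lost without G1 replicate 2 or 3 or NS replicate 3, with upper-quartile scaling, with DESeq2 or in a fit of the 2 groups alone (0.02 to 0.11, adjusted p = 0.0554 to 0.756). TARS had a log2 fold change of 0.02 ± 0.047 (adjusted p = 0.792) with G1, with a 95% interval of -0.08 to 0.11.

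HARS and HARS2, the cytosolic and mitochondrial histidine enzymes, are neighbours on chromosome 5 that are transcribed away from each other, with 84 bases between their RefSeq start sites. HARS rose with G1, while HARS2 averaged 28.0 ± 0.914 CPM with G1, 27.1 ± 2.03 CPM with G7 and 27.7 ± 0.622 CPM with NS (SD, n = 3 each) and had a log2 fold change of 0.02 ± 0.068 (adjusted p = 0.813) with G1 and -0.03 ± 0.067 (adjusted p = 0.81) with G7. The stretch that holds both starts is shown on the plus strand of GRCh38.p14 (chr5:140691321-140691504), with the bases between the start sites in capitals; HARS is read from the left border of the capitals towards the left, and HARS2 from the right border towards the right.
HARS and HARS2 start region: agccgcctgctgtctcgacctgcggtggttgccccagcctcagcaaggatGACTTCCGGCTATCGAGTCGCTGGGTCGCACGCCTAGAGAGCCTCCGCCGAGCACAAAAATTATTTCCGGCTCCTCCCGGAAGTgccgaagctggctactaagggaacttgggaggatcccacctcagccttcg

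By fold class, the structural division of synthetases by their catalytic domain, cytosolic class I genes had 2 rises, 6 falls and 2 not called with G1, beside 59.1% of all genes called, 30.4% higher and 28.7% lower (members' median log2 fold change -0.19). Cytosolic class II genes had 6 rises, 3 falls and 1 not called (median 0.15). The joint enzyme EPRS, which fell, was counted in class I only. Among tested mitochondrial genes, class I had 4 rises and 1 fall of 8 (median 0.24), a called share near that over all genes, and edgeR called 0 of the 6 class II genes (median 0.04), where 1 had an unadjusted p under 0.05 and DESeq2 called 0. These 6 were FARS2, HARS2, NARS2, PARS2, SARS2 and TARS2.

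The mitochondrial changes were led by the leucine, cysteine, isoleucine and tyrosine enzymes. LARS2 (ENSG00000011376, chr3:45388506-45549421, plus strand) had 21.8, 21.5 and 21.0 CPM in the G1 libraries, 19.5, 18.1 and 16.7 CPM in the G7 libraries and 12.9, 16.5 and 13.9 CPM in the NS libraries. The G1 libraries lay above all others, and the lowest G7 library lay just above the highest NS library. The log2 fold change was 0.57 ± 0.089 (adjusted p = 2.46e-05) with G1 and 0.32 ± 0.090 (adjusted p = 0.014) with G7. The G7 call was lost without G7 replicate 1 or NS replicate 1 or 3 (0.26 to 0.30, adjusted p = 0.059 to 0.0786). IARS2 (ENSG00000067704, chr1:220094102-220148041, plus strand) had 423, 442 and 420.2 CPM in the G1 libraries, 371, 376 and 332 CPM in the G7 libraries and 329, 311 and 304 CPM in the NS libraries. G1 libraries were the highest and NS libraries the lowest, without overlap, and the log2 fold change was 0.45 ± 0.049 (adjusted p = 3.66e-07) with G1 and 0.19 ± 0.049 (adjusted p = 0.00857) with G7.

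CARS2, the mitochondrial cysteine enzyme, had 41.1, 42.6 and 44.3 CPM in the G1 libraries, 33.4, 32.6 and 31.6 CPM in the G7 libraries and 31.7, 30.6 and 31.2 CPM in the NS libraries. Only the G1 libraries stood apart, with a log2 fold change of 0.45 ± 0.057 (adjusted p = 1.91e-06) with G1 and 0.06 ± 0.058 (adjusted p = 0.486) with G7. YARS2, the mitochondrial tyrosine enzyme, averaged 37.9 ± 2.42 CPM with G1, 32.4 ± 2.79 CPM with G7 and 29.4 ± 0.452 CPM with NS (SD, n = 3 each). It changed by 0.37 ± 0.070 (adjusted p = 1.70e-04) on the log2 scale with G1 and 0.14 ± 0.071 (adjusted p = 0.179) with G7, and G7 was called without G7 replicate 3 (0.20, adjusted p = 0.0398). WARS2, the mitochondrial tryptophan enzyme, fell with G1. It had 53.8, 56.9 and 56.9 CPM in the G1 libraries, 60.2, 65.4 and 60.4 CPM in the G7 libraries and 67.1, 69.7 and 63.1 CPM in the NS libraries. The G1 libraries were the lowest, and the log2 fold change was -0.25 ± 0.055 (adjusted p = 6.27e-04) with G1 and -0.10 ± 0.054 (adjusted p = 0.176) with G7.

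The other 9 tested mitochondrial genes were not called with G1. FARS2, the phenylalanine enzyme, came nearest at 0.23 ± 0.099 (adjusted p = 0.0549), and it was called without G1 replicate 2 or G7 replicate 3 or NS replicate 1, with no filter on low counts or in a fit of the 2 groups alone (0.22 to 0.29, adjusted p = 0.0304 to 0.0496). EARS2, the glutamate enzyme, had 0.10 ± 0.049 (adjusted p = 0.0951). TARS2, NARS2, HARS2, RARS2, VARS2, PARS2 and SARS2 had log2 fold changes with G1 of 0.09, 0.06, 0.02, -0.02, -0.04, -0.07 and -0.12. The 95% interval for SARS2 was wide, -0.89 to 0.66, so neither a fall nor a rise within it can be told from no change.

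**Figure D3:**
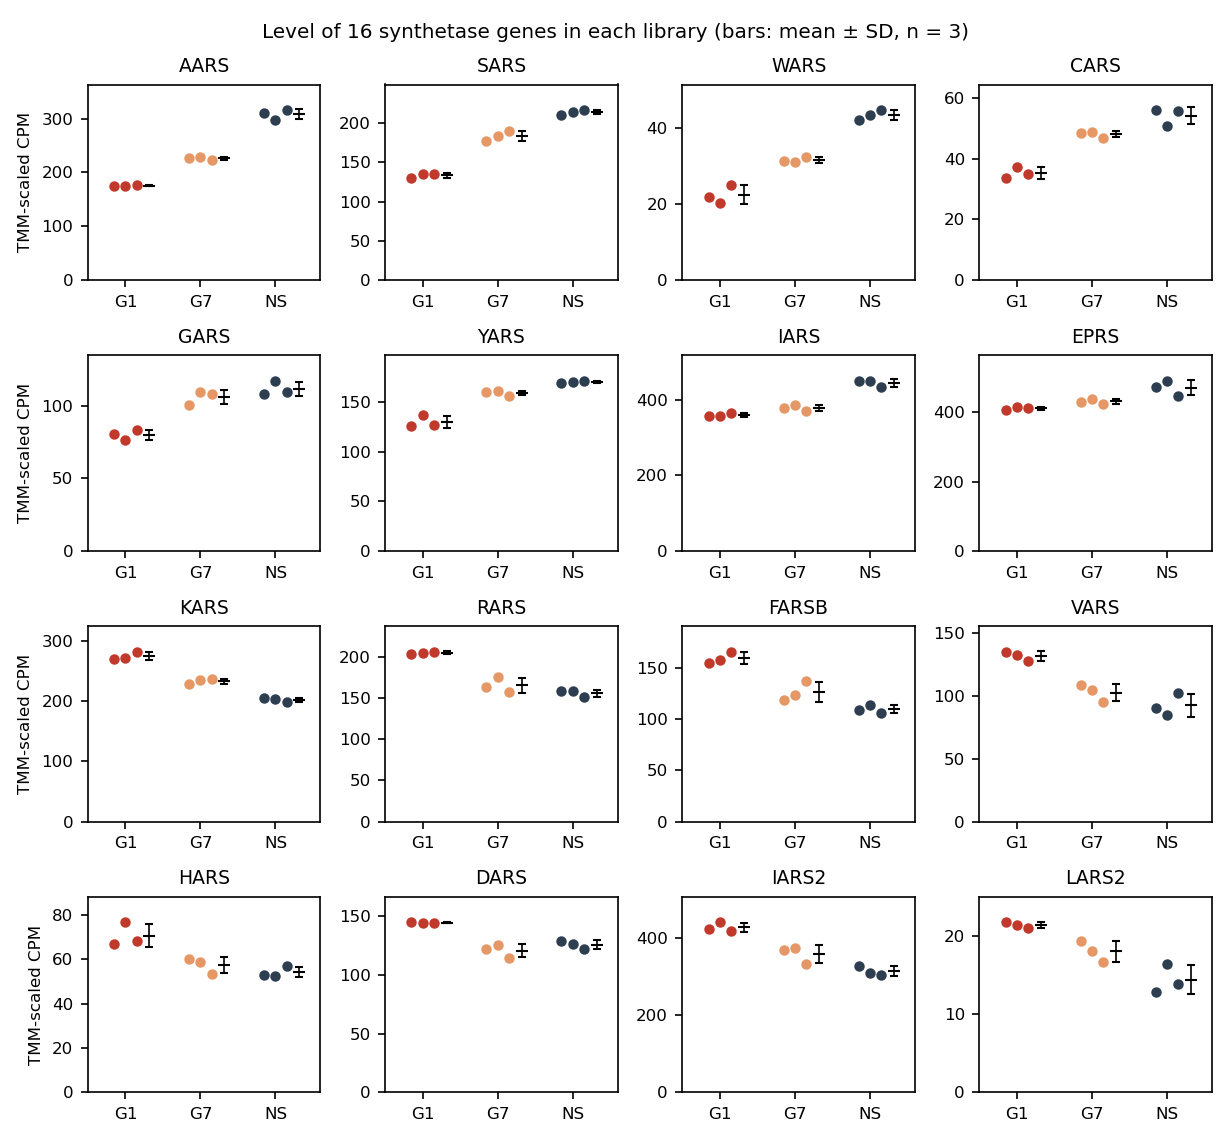
Level in CPM (vertical axes from 0) of 16 synthetase genes in each of the 9 libraries, grouped as G1, G7 and NS, with the mean and SD beside each group of 3 points. WARS, AARS and SARS lay lowest in G1, while KARS, FARSB and IARS2 lay highest there.

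With G7, edgeR called 11 of the 34 tested members, beside 22.7% of all genes tested with G7 (13.1% higher, 9.64% lower). The 20 cytosolic genes had 2 rises, KARS and FARSB, and 6 falls, WARS, AARS, IARS, SARS, CARS and EPRS, with a median log2 fold change of -0.07 beside 0.01 over all genes. The 14 tested mitochondrial genes had 3 rises and 0 falls, with a median of 0.07. For those falls edgeR gave 0 at an unadjusted p under 0.05, and DESeq2 called 0. Libraries of G7 and NS did not overlap for 6 members that were higher and 7 that were lower with G7, beside 35.3% of all genes tested (19.3% higher, 15.9% lower). With upper-quartile scaling 1398 genes were called higher and 1603 lower with G7, against 1735 and 1279 with TMM. Besides LARS2 and IARS2, TARS2, the mitochondrial threonine enzyme, rose with G7. It had 37.5, 38.6 and 39.8 CPM in the G1 libraries, 40.9, 42.1 and 41.8 CPM in the G7 libraries and 35.8, 35.8 and 37.4 CPM in the NS libraries. The G7 libraries lay above all others, with a log2 fold change of 0.19 ± 0.054 (adjusted p = 0.0147). That call was lost without NS replicate 1 or 2 or with thinned libraries (0.17 to 0.18, adjusted p = 0.0519 to 0.0578). Leaving out NS replicate 1 lowered the number of members called with G7 to 7, and the mitochondrial rises to 1. Leaving out G7 replicate 3, the library that stood apart, again gave 11 called members, with 4 cytosolic falls, 3 cytosolic rises and 4 mitochondrial rises.

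Both hairpin comparisons share the NS libraries, so the hairpins were compared directly. G1 minus G7 called 20 of 34 members, beside 44.9% of all genes tested (23.3% higher, 21.6% lower in G1). Of the cytosolic genes 7 were higher in G1 (VARS, FARSB, RARS, HARS, DARS, KARS and FARSA) and 7 were lower (WARS, SARS, CARS, GARS, AARS, YARS and QARS). The largest cytosolic differences were -0.50 ± 0.071 (adjusted p = 1.56e-05) for WARS, -0.46 ± 0.042 (adjusted p = 6.31e-08) for SARS and -0.44 ± 0.058 (adjusted p = 6.21e-06) for CARS, and 0.36 ± 0.061 (adjusted p = 9.49e-05) for VARS. IARS and EPRS were not called between the hairpins, at -0.07 ± 0.039 (adjusted p = 0.14) with a 95% interval of -0.15 to 0.01 and -0.07 ± 0.042 (adjusted p = 0.182) with -0.16 to 0.02. Upper-quartile scaling called both (-0.13 each, adjusted p = 0.0077 for IARS and 0.0129 for EPRS). The QARS difference, -0.12 ± 0.041 (adjusted p = 0.0256), lost its call without G1 replicate 1, 2 or 3 or G7 replicate 1, with no filter on low counts or with DESeq2 (-0.12 to -0.09, adjusted p = 0.0523 to 0.183). Among genes not called between the hairpins, MARS was called without G7 replicate 3 or with upper-quartile scaling (-0.16 to -0.13, adjusted p = 0.00818 to 0.0258), TARS without G7 replicate 3 or with no filter on low counts (0.12 to 0.14, adjusted p = 0.015 to 0.0265) and NARS without NS replicate 3 or with no filter on low counts (0.09 to 0.12, adjusted p = 0.046 to 0.0484). Libraries of G1 and G7 did not overlap for 13 members that were higher and 13 that were lower in G1, beside 53.6% of all genes tested (27.0% higher, 26.6% lower). Upper-quartile scaling called 2346 genes higher and 3751 lower in G1 than in G7, against 3092 and 2870 with TMM.

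Of the mitochondrial genes 4 were higher in G1 than in G7 and 2 were lower. CARS2 differed most, by 0.39 ± 0.055 (adjusted p = 1.41e-05). IARS2 differed by 0.25 ± 0.049 (adjusted p = 3.59e-04). LARS2 differed by 0.25 ± 0.083 (adjusted p = 0.0226), a call lost without G1 replicate 1 or 2 or G7 replicate 3, with upper-quartile scaling or with thinned libraries (0.19 to 0.25, adjusted p = 0.0539 to 0.0793), and YARS2 by 0.24 ± 0.067 (adjusted p = 0.00819), a call lost without G1 replicate 2 (0.18, adjusted p = 0.0637). The lower genes were WARS2 and PARS2, the proline enzyme. WARS2 differed by -0.15 ± 0.054 (adjusted p = 0.0319) and lost its call without G1 replicate 1, 2 or 3 or G7 replicate 2, with no filter on low counts, with DESeq2 or with thinned libraries (-0.16 to -0.11, adjusted p = 0.052 to 0.185). PARS2 differed by -0.22 ± 0.084 (adjusted p = 0.0386) and lost its call without G1 replicate 1 or 3 or G7 replicate 1 or 2, with no filter on low counts, with DESeq2 or with thinned libraries (-0.24 to -0.12, adjusted p = 0.0605 to 0.271). EARS2 was called without NS replicate 3, with RLE scaling or without mitochondrially encoded genes (0.12, adjusted p = 0.0437 to 0.0499), and TARS2 with upper-quartile scaling (-0.17, adjusted p = 0.0151).

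The cytosolic and mitochondrial classes were set against each other as sums. Summed cytosolic levels were 3646 ± 41.8 CPM with G1, 3642 ± 39.5 CPM with G7 and 3861 ± 40.5 CPM with NS. Summed mitochondrial levels were 813 ± 15.1 CPM with G1, 729.5 ± 31.95 CPM with G7 and 676 ± 15.01 CPM with NS. Per kb, the cytosolic sum over the mitochondrial sum was 3.66, 3.56 and 3.71 in the G1 libraries, 3.87, 3.86 and 4.17 in the G7 libraries and 4.41, 4.48 and 4.56 in the NS libraries. Every hairpin library lay below every NS library, and the G1 libraries lay below the G7 libraries. Without IARS2 the ratio was 7.51, 7.33 and 7.49 with G1, 7.47, 7.37 and 7.70 with G7 and 8.12, 7.95 and 8.19 with NS, which still separated the hairpin libraries from NS but no longer G1 from G7. IARS2 also carried most of the mitochondrial sum's difference, since without it the summed levels were 385 ± 5.45 CPM with G1, 369.8 ± 8.69 CPM with G7 and 361 ± 6.28 CPM with NS. The ratios are given without a test, since 3 libraries against 3 cannot reach an exact two-sided p under 0.10 and the members were chosen with earlier results known.

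**Figure D4:**
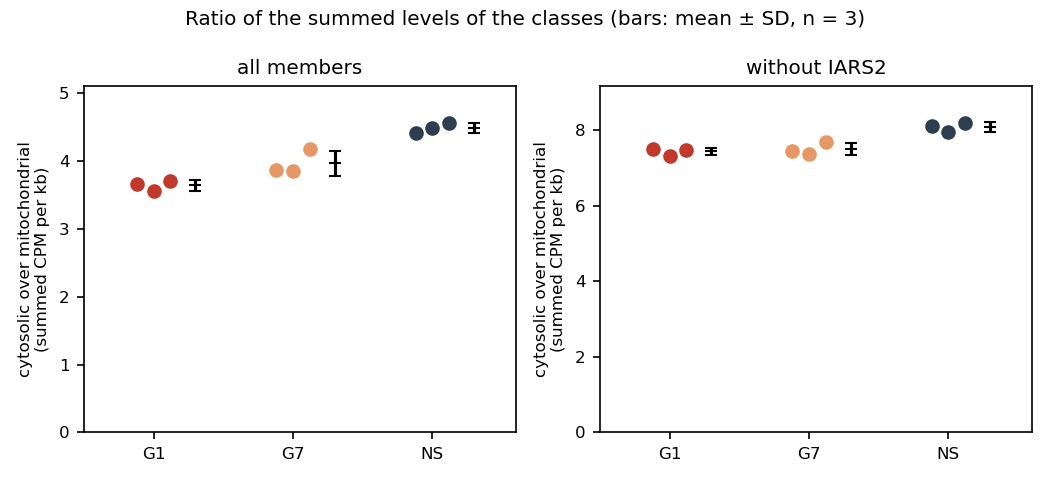
Ratio of summed cytosolic to summed mitochondrial synthetase levels (CPM per kb) in each library of G1, G7 and NS, with mean and SD (n = 3), for all members and without IARS2. With all members the NS libraries lay above every hairpin library; without IARS2 G1 and G7 overlapped.

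For 11 amino acids a cytosolic and a mitochondrial member of matching name were both measured. The ratio of the 2 levels per kb was followed within each library. EPRS with EARS2 and PARS2, and FARSA and FARSB with FARS2, also share amino acids between compartments but were not paired. With G1 the cysteine pair moved most, while with G7 the isoleucine pair did. CARS over CARS2 was 0.850, 0.913 and 0.823 in the G1 libraries, 1.51, 1.56 and 1.55 in the G7 libraries and 1.85, 1.74 and 1.86 in the NS libraries, so the mitochondrial gene was the higher one with G1 and the cytosolic gene was the higher one in the other groups. YARS over YARS2 was 0.919, 0.883 and 0.899 with G1, 1.30, 1.20 and 1.39 with G7 and 1.504, 1.503 and 1.56 with NS, with the same crossing of 1 per kb. That crossing depends on the exon unions, 8212 bases for YARS and 2152 for YARS2. In plain CPM YARS averaged 130 with G1, against 37.9 for YARS2. IARS over IARS2 was 0.475, 0.454 and 0.490 with G1, 0.575, 0.578 and 0.628 with G7 and 0.769, 0.816 and 0.800 with NS, below 1 per kb in every library. In plain CPM IARS averaged 360 against 428 for IARS2 with G1, and 444 against 315 with NS. The shift of a ratio between groups does not depend on the exon length.

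WARS over WARS2 was 0.247, 0.216 and 0.267 with G1, 0.314, 0.286 and 0.325 with G7 and 0.378, 0.376 and 0.429 with NS, where both genes fell with G1 and the cytosolic one fell further. The opposite shift was seen for arginine. RARS over RARS2 was 3.46, 3.58 and 3.39 with G1, 3.04, 3.07 and 2.52 with G7 and 2.65, 2.49 and 2.69 with NS, and the G7 and NS libraries overlapped. VARS over VARS2 was 9.20, 8.40 and 8.27 with G1, 7.25, 6.76 and 6.94 with G7 and 5.84, 5.65 and 6.13 with NS, subject to the uncertain count of VARS2. In all, the mean ratio was lower than NS for 7 of 11 pairs with G1 and higher for 4. With G7 it was lower for 8 and higher for 3. The libraries did not overlap for 5 of the lower and 3 of the higher pairs with G1, and for 6 of the lower and 1 of the higher pairs with G7. Among single genes, libraries did not overlap for 64.1% of all tested with G1 and 35.3% with G7. No such share was computed for ratios of other gene pairs, so these counts are a description. SARS over SARS2, which rests on few SARS2 counts, was among the overlapping pairs.

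**Figure D5:**
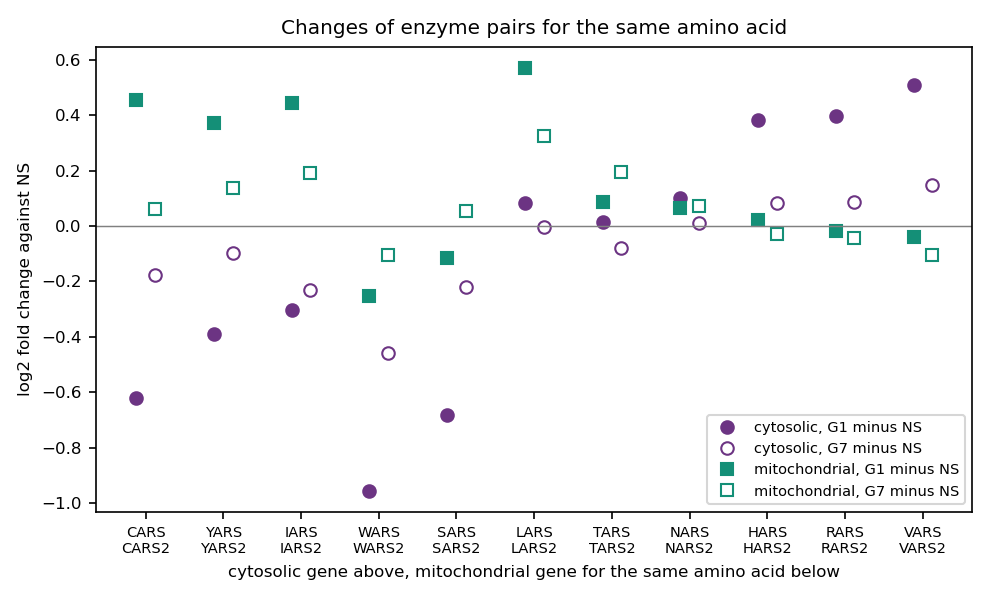
Log2 fold change against NS (vertical axis) of the cytosolic gene (circles) and the mitochondrial gene (squares) for each of 11 amino acids, with filled symbols for G1 and open symbols for G7. The cysteine, tyrosine and isoleucine pairs had a positive mitochondrial and a negative cytosolic value with G1, and the valine, arginine and histidine pairs had a cytosolic value above the mitochondrial one.

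Genes around the synthetases were described from further lists, whose counts stand beside shares over all genes tested of 30.4% higher and 28.7% lower with G1 and of 13.1% higher and 9.64% lower with G7. Of the scaffolds and partners, 8 of 10 were tested and 5 rose and 2 fell with G1, with a median log2 fold change of 0.34. AIMP1 and AIMP2, scaffolds of the complex, had log2 fold changes of 0.34 ± 0.062 (adjusted p = 1.47e-04) and 0.56 ± 0.095 (adjusted p = 6.44e-05) with G1 and of 0.09 ± 0.063 (adjusted p = 0.339) and 0.17 ± 0.097 (adjusted p = 0.241) with G7. EEF1E1 was listed at 0 in every library and has no fold change. SEPHS1, a selenophosphate synthetase homologue, had 0.57 ± 0.050 (adjusted p = 1.60e-08) with G1.

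Of 17 mitochondrial tRNA and translation partners, 7 rose and 2 fell with G1 (median 0.08), and 2 rose and 1 fell with G7, which is near or below the 59.1% and 22.7% of all genes called with G1 and with G7. TUFM, the mitochondrial elongation factor Tu, had a log2 fold change of 0.35 ± 0.043 (adjusted p = 1.27e-06) with G1, MTRF1L, a mitochondrial release factor, had 0.41 ± 0.069 (adjusted p = 5.48e-05), and TRMU, which thiolates mitochondrial tRNAs, had 0.52 ± 0.090 (adjusted p = 7.07e-05). Of 6 tested cytosolic elongation factors 3 rose and 1 fell with G1, and with G7 edgeR called 0 (2 had an unadjusted p under 0.05, and DESeq2 called 0). EIF5A, which eases peptide bond formation at prolines, led them at 0.77 ± 0.11 (adjusted p = 5.78e-06) with G1. With G7 EIF5A was called higher without G1 replicate 3 or G7 replicate 3 or with no filter on low counts (0.27 to 0.40, adjusted p = 1.66e-05 to 0.0424). Of 14 tested tRNA export and processing genes, 9 rose and 1 fell with G1 (median 0.43), and 6 rose and 1 fell with G7 (median 0.15). SSB, the La protein that binds new tRNA ends, and POP1, a subunit of RNase P, had 0.73 ± 0.058 (adjusted p = 4.45e-09) and 0.67 ± 0.061 (adjusted p = 2.58e-08) with G1. XPOT, the tRNA exportin, fell, at -0.44 ± 0.042 (adjusted p = 4.79e-08) with G1 and -0.30 ± 0.041 (adjusted p = 4.96e-05) with G7.

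Genes of the ATF4 and amino acid response were mostly lower with G1. Of the 20 tested genes on that list 17 fell and 3 rose with G1, with a median log2 fold change of -0.75, and 10 fell and 1 rose with G7, with a median of -0.17. ATF4 itself had 373, 381 and 366 CPM in the G1 libraries, 489, 482 and 467 CPM in the G7 libraries and 547, 537 and 561 CPM in the NS libraries. The groups did not overlap, with G1 lowest. Its log2 fold change was -0.55 ± 0.040 (adjusted p = 1.24e-09) with G1 and -0.19 ± 0.040 (adjusted p = 0.00163) with G7. DDIT3, the stress factor CHOP, had 0.237, 0.369 and 0.578 CPM in the G1 libraries, 1.95, 1.99 and 2.38 CPM in the G7 libraries and 2.87, 4.05 and 3.27 CPM in the NS libraries, with log2 fold changes of -3.11 ± 0.28 (adjusted p = 2.04e-08) and -0.69 ± 0.19 (adjusted p = 0.0118), and the G7 call was lost without NS replicate 2 (-0.55, adjusted p = 0.079). ASNS, asparagine synthetase, had 19.6, 18.4 and 16.4 CPM in the G1 libraries, 72.0, 71.5 and 62.8 CPM in the G7 libraries and 97.9, 96.2 and 100.3 CPM in the NS libraries, with G1 far below the other groups. Its log2 fold change was -2.43 ± 0.069 (adjusted p = 4.02e-15) with G1 and -0.51 ± 0.058 (adjusted p = 5.91e-06) with G7. PSAT1, of serine synthesis, and STC2, a secreted glycoprotein, had -1.18 ± 0.048 (adjusted p = 4.45e-13) and -0.95 ± 0.041 (adjusted p = 8.93e-13) with G1. Of 10 amino acid transporter genes, 8 fell and 0 rose with G1 (median -0.53), and 5 fell and 0 rose with G7 (median -0.15). For the rises edgeR gave 1 at an unadjusted p under 0.05 with G1 and 0 with G7, and DESeq2 called 0 and 0. SLC6A9, a glycine transporter, and SLC3A2, the heavy chain of large neutral amino acid transporters, had -0.99 ± 0.067 (adjusted p = 5.71e-10) and -0.96 ± 0.070 (adjusted p = 1.56e-09) with G1, and SLC7A1, a cationic amino acid transporter, had -0.48 ± 0.044 (adjusted p = 2.47e-08). Of 6 tested eIF2 kinase, substrate and phosphatase genes, 4 rose and 2 fell with G1. PPP1R15A, the inducible phosphatase subunit, had -1.02 ± 0.057 (adjusted p = 3.39e-11), EIF2S1, the alpha subunit of eIF2, had 0.68 ± 0.051 (adjusted p = 2.28e-09), and EIF2AK3, the ER-stress kinase PERK, had -0.56 ± 0.080 (adjusted p = 9.22e-06). These lists were chosen with earlier results of the same libraries known, so their direction is a description. Whether the change of these genes and that of the synthetase genes are linked was not tested.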

How the data were processed

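Polyadenylated RNA of HCC827 cells was sequenced in 9 libraries, 3 per group, from strand-specific dUTP libraries per the labels' protocols. The authors deposited unnormalized read counts for each Ensembl gene. TopHat2 2.1.0, HTSeq 0.6.0 and the build hg38 (GRCh38) are named, per the submitters' processing notes; the sources used here do not give the annotation release, the strand setting or any read filter. Counting that skips overlapping features lowers the counts of overlapping genes.

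Of 60675 rows, 57055 carried an identifier found in GENCODE 29, from which symbols, GRCh38 coordinates and exon lengths (union of exons) came; the other 3620 held 0.025% of the counts. Library totals of 12701561 to 22372353 set the precision. For counting error only, 3 counts, about the one-sided 95% upper limit for a count of 0, were 0.134 to 0.236 CPM. Genes were kept by filterByExpr (13264), scaled by TMM and fitted together over all 9 libraries with edgeR 4.0.16 in R 4.3.3 (quasi-likelihood test, two-sided, common dispersion 0.00217). SE is the log2 fold change divided by the square root of F. The procedure was tested on simulated data. In G1 minus NS it recovered 57.1% of 1.25-fold changes and 92% of 2-fold changes. In G7 minus NS it recovered 63.3% and 94%, so small changes could be missed. Replicates were kept separate, since each pair differed by more than sampling noise (chi-square per degree of freedom 1.46 to 22.6). Alternatives were RLE and upper-quartile scaling, no filter, DESeq2 1.42.0, fits of 2 groups, each library left out, a replicate block, removal of mitochondrially encoded genes and libraries thinned to 12701561 counts.

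The members and lists were chosen with earlier results of these data known. Any member could be named. Beyond them the rule named CBX5, ATF4, DDIT3, ASNS, AIMP1, AIMP2, EEF1E1 and up to 3 genes per list with the smallest p in G1 minus NS; those printed are examples from this rule, 1 gene it named is not reported here, and overlapping genes are named where an overlap bears on a member. Promoters are from RefSeq (GRCh38.p14).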

Additional observations from a re-analysis of the deposited data

Results flagged for a closer look

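Of the synthetase genes, 3 had fitted changes of opposite sign with the 2 hairpins and a called difference between G1 and G7. DARS, the cytosolic aspartate enzyme, had a log2 fold change of 0.20 with G1 and -0.06 with G7, and the direct difference G1 minus G7 was 0.26 (edgeR adjusted p = 1.15e-04); the G7 change itself was not called. QARS, the glutamine enzyme, had -0.10 with G1 and 0.02 with G7, a difference of -0.12 (edgeR adjusted p = 0.0256), and neither change was called. PARS2, the mitochondrial proline enzyme, had -0.07 with G1 and 0.16 with G7, a difference of -0.22 (edgeR adjusted p = 0.0386), again with neither change called. The QARS and PARS2 differences lost their call in 6 and 7 of 17 alternative settings, and the DARS difference in 0.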

How the results depend on the processing

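Across 17 alternative settings no member changed direction while called in both. With G1, 7 of 577 values lost their call and 10 gained one; with G7, 21 of 576 lost and 5 gained; for G1 minus G7, 26 of 577 lost and 12 gained. Counts over the members that moved were few. With each library left out in turn, members called with G7 numbered 7 to 11 (11 with all libraries) and mitochondrial rises with G7 numbered 1 to 4 (3), the lowest values coming without NS replicate 1. For G1 minus G7, mitochondrial genes called lower numbered 0 to 2 (2) and those called higher 2 to 5 (4) with a library left out, and the lower ones numbered 0 with no filter, with DESeq2 and with thinned libraries, where the cause was not tested. With the replicate number as a block, the fit called 22 members with G1, 11 with G7 and 20 for G1 minus G7. These numbers were not treated as a pairing: correlations of same-numbered libraries ran from -0.08 to 0.20, and in 2 of 9 pairs each library correlated best with its own number. Depth limits SARS2 most, and AARS2 and MARS2 could not be tested.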
